A study of Oryza sativa with 8 samples.

Results

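GRAS proteins are a plant family of transcription regulators. The genes described here are 8 chosen rice GRAS regulators with a known developmental or signalling role: SCR1, SCR2, SHR1, SHR2, SLR1, MOC1, CIGR1 and CIGR2. They were found by taking every probe set that the array's gene table gives to a single gene carrying one of these names as symbol or synonym. This gave 5 probe sets for 5 of the 8 genes, out of 57194 rice probe sets, and each of the 5 genes had 1 probe set. SCR2 and SHR2 are in the RefSeq gene table (assembly ASM3414082v1) but were given no probe set in the array's gene table, and MOC1 was in neither table, so these 3 genes were not analysed here. Whether the SCR1 and SHR1 probe sets also read SCR2 and SHR2 transcripts was not checked.

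Leaves of japonica rice Zhonghua11 seedlings, 21 days old, were hybridized to 8 Affymetrix rice arrays. The groups were OsGRAS23 overexpression plants under drought, OsGRAS23 overexpression plants under normal conditions, wild-type (WT) plants under drought and WT plants under normal conditions, with 2 biological replicates each and 20 seedlings per replicate. Plants under drought had been moved onto filter paper, and leaves were taken once the WT leaves started rolling, while the normal leaves came from plants that had stayed in culture solution. No plants were moved and kept wet, so drought cannot be told apart from the transfer and the later sampling. The promoter of the OsGRAS23 construct and the number of transgenic lines are not given in the sources used here. OsGRAS23 is itself a GRAS gene, but neither gene table gives that name to a probe set, so its level in the overexpression plants was not checked.

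GRAS regulators share a conserved C-terminal domain and mostly work through partner proteins rather than by binding DNA alone. SHORT-ROOT (SHR) and SCARECROW (SCR) act together in Arabidopsis, where SHR protein moves outward from the vascular cylinder and switches on SCR to pattern the ground tissue, and in rice they also take part in setting out stomatal files in the leaf. SLR1 is the DELLA protein of rice, which restrains growth until gibberellin and its receptor GID1 cause it to be degraded. CIGR1 and CIGR2 were named from rice cells in which their transcripts accumulate after chitin fragments or gibberellin. MOC1 is needed to form tiller buds.

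SHR1 and SCR1 read lower on every drought array than on any normal array of either line, as did 15.1% of all probe sets. The drought and normal arrays of SLR1, CIGR1 and CIGR2 overlapped. The values are RMA expression on the log2 scale, so a difference of 1 is a 2-fold difference. A gene was called when the limma adjusted p was under 0.05, over all 57194 probe sets, and the difference reached 2-fold. Only SCR1 in WT leaves was called, in the drought comparison, where 7.68% of all probe sets were called. No member was called between OsGRAS23 and WT leaves, where 0.0192% of all probe sets were called under normal conditions and 0.0157% under drought. With 2 arrays a group, an exact permutation test of 2 against 2 cannot go below p = 0.333, so every value here is only as precise as its pair of arrays.

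**Figure D1:**
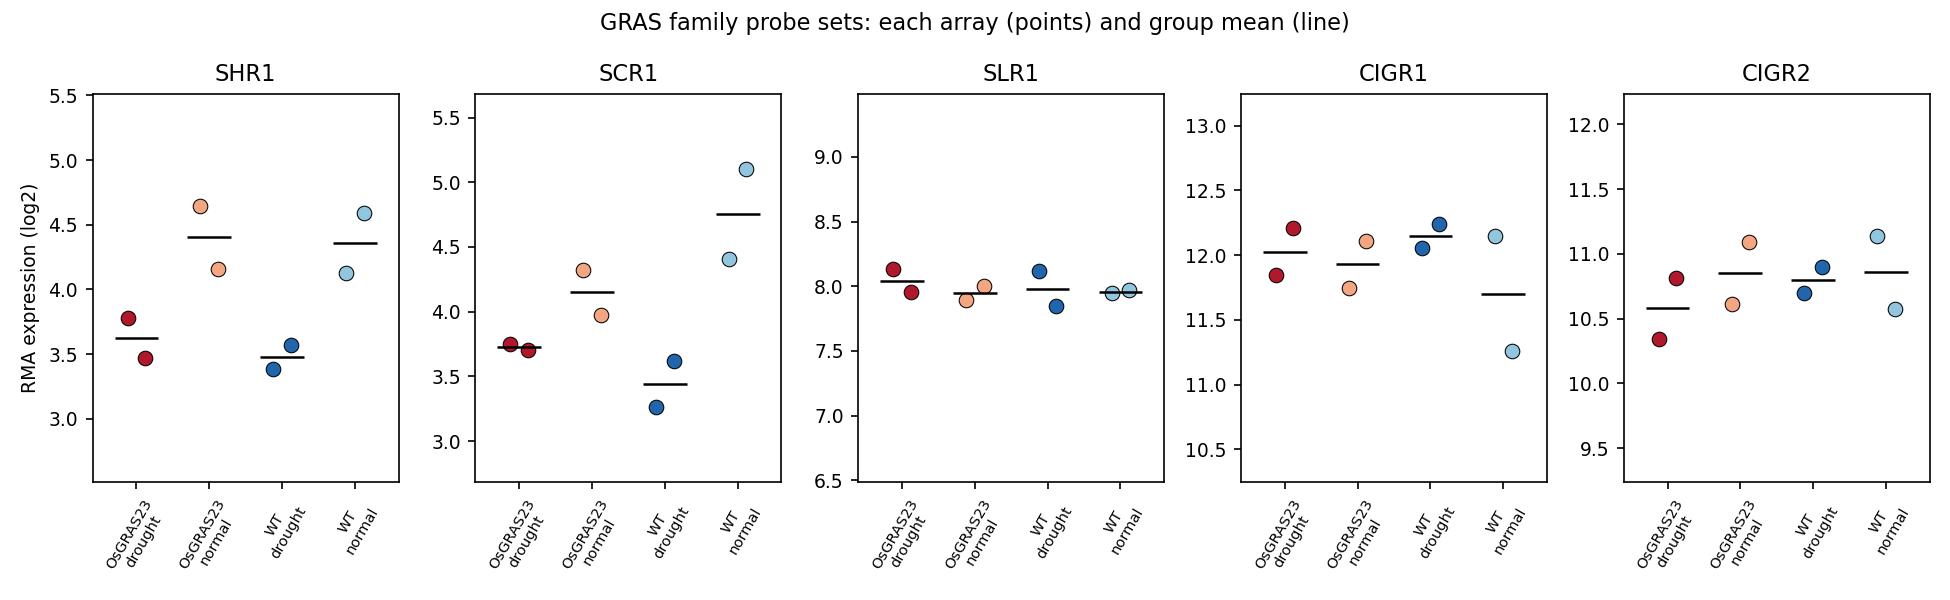
RMA expression (log2, vertical axis, each panel spanning the same number of units) of the 5 GRAS probe sets on each array (points) with the group mean (line), for OsGRAS23 drought, OsGRAS23 normal, WT drought and WT normal leaves. SHR1 and SCR1 lie lower on all 4 drought arrays than on any normal array, as do 15.1% of all probe sets. The groups of SLR1, CIGR1 and CIGR2 overlap.

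SCR1 (gene 4349638), a rice SCARECROW gene, read 3.75 and 3.71 in OsGRAS23 drought leaves, against 4.33 and 3.98 in OsGRAS23 normal leaves. It read 3.27 and 3.62 in WT drought leaves, against 4.41 and 5.10 in WT normal leaves. All 4 drought arrays, at 3.27 to 3.75, lay below all 4 normal arrays, as for 15.1% of all probe sets. The highest value was that of WT normal replicate 2. In WT leaves, SCR1 fell by 1.32 on the log2 scale under drought (SE 0.25, 95% interval -1.87 to -0.76, limma adjusted p = 0.00973), which is 2.49-fold lower. In OsGRAS23 leaves the difference was -0.42 (95% interval -0.98 to 0.13, adjusted p = 0.448). The WT interval therefore excludes no change, whereas the OsGRAS23 interval includes both no change and a fall of almost 2-fold.

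The size of the SCR1 difference in WT leaves rested partly on single arrays. Without WT normal replicate 2 it was -0.97 (adjusted p = 0.0609) and without WT drought replicate 1 it was -1.14 (adjusted p = 0.0659), and in neither case was SCR1 called. Without WT normal replicate 1 it was -1.66. Leaving out a single array could not turn its direction, because both WT drought arrays lay below both WT normal arrays.

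SHR1 (gene 4343753), a rice SHORT-ROOT gene, read 3.78 and 3.47 in OsGRAS23 drought leaves, against 4.64 and 4.16 in OsGRAS23 normal leaves. It read 3.38 and 3.57 in WT drought leaves, against 4.13 and 4.59 in WT normal leaves. The drought arrays again all lay below the normal arrays, as for 15.1% of all probe sets. The levels of both lines were close to each other within each condition. The drought difference was -0.78 in OsGRAS23 leaves (SE 0.23, 95% interval -1.29 to -0.26, adjusted p = 0.110). In WT leaves it was -0.88 (SE 0.23, 95% interval -1.40 to -0.37, adjusted p = 0.0299), 1.84-fold lower, which passed the adjusted p but not the 2-fold limit. The adjusted p no longer passed without WT normal replicate 2 (-0.65, adjusted p = 0.196), WT drought replicate 1 (-0.79, adjusted p = 0.131) or WT drought replicate 2 (-0.98, adjusted p = 0.0902).

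In WT leaves, 1 of the 5 members was called lower, where 5.51% of all probe sets were lower and 7.68% were called in either direction. An unadjusted limma p under 0.05 was found in WT leaves for 2 of the 5 (SCR1 and SHR1) and for 35.9% of all probe sets. In OsGRAS23 leaves 0 of 5 were called by limma, where 2.43% of all probe sets were called in either direction. An unadjusted p under 0.05 was found there for 1 of the 5 (SHR1) and for 17% of all probe sets. Averaged over both lines, the drought difference was -0.87 for SCR1 (95% interval -1.26 to -0.48, adjusted p = 0.00842) and -0.83 for SHR1 (95% interval -1.19 to -0.47, adjusted p = 0.00729). Both passed the adjusted p, as did 14.5% of all probe sets in the lower direction, and both were under 2-fold. By the 2-fold rule limma called 0 of 5 members in this averaged comparison, where 4.93% of all probe sets were called, and an unadjusted p under 0.05 was found for 2 of the 5 and for 37.5% of all probe sets. An exact permutation test within lines, two-sided over all 36 relabellings, gave p = 0.0556 for each of SCR1 and SHR1, the smallest it can give. Complete separation of the drought arrays below the normal arrays held for 2 of the 5 members and for 15.1% of all probe sets, so such a fall was common on these arrays.

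**Figure D2:**
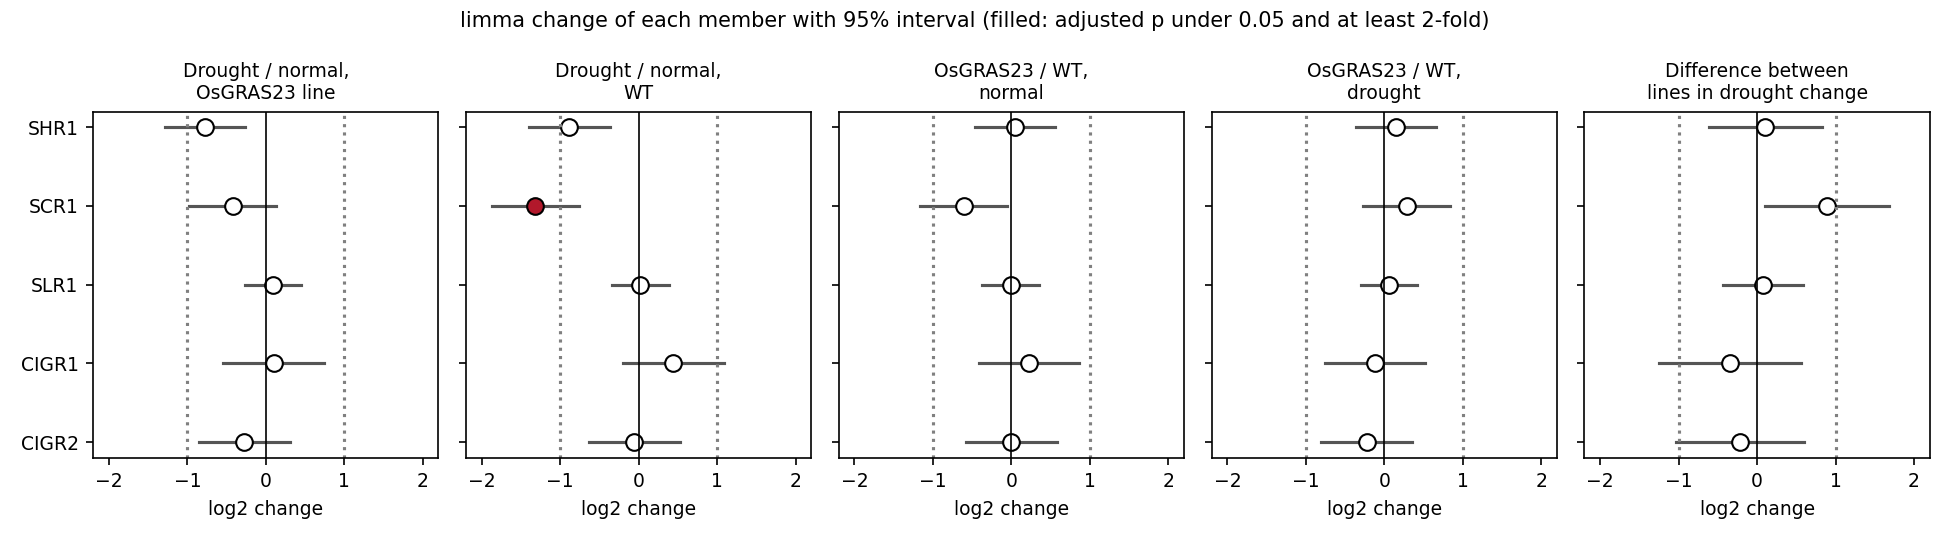
limma difference (log2, horizontal axis) with its 95% interval for each GRAS gene in 5 comparisons, filled where the adjusted p was under 0.05 and the difference at least 2-fold, with dotted lines at 2-fold. The only filled point is SCR1 in WT drought against WT normal leaves, at -1.32, and the SLR1 intervals are the narrowest.

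Both genes were dim on these arrays, and several other measures moved with them. In WT drought leaves SCR1 and SHR1 lay below the lower quartile of their arrays (3.69 and 3.72), while in OsGRAS23 drought leaves SCR1 lay just above it on both arrays (3.63 and 3.65) and SHR1 above it on 1 of 2. RMA values carry no detection call, so it is not known whether either gene was above background there. In bulk leaf RNA, fewer cells of a type and less RNA per cell cannot be told apart. Over the 8 arrays SCR1 and SHR1 followed each other (Pearson r = 0.88), a description over arrays that share the drought difference.

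The array's bacterial spike controls are 9 probe sets for RNA added at hybridization. Their means were 10.90 and 10.97 in OsGRAS23 drought leaves and 10.31 and 10.37 in OsGRAS23 normal leaves. They averaged 10.78 and 11.53 in WT drought leaves and 10.20 and 9.30 in WT normal leaves. WT normal replicate 2 thus had the dimmest spike controls and the highest SCR1 value. Over the 8 arrays, the spike controls had r = -0.88 with SCR1, r = -0.80 with SHR1 and r = 0.78 with CIGR1, but r = -0.03 with SLR1 and r = 0.06 with CIGR2. Their part in these results was not tested.

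**Figure D3:**
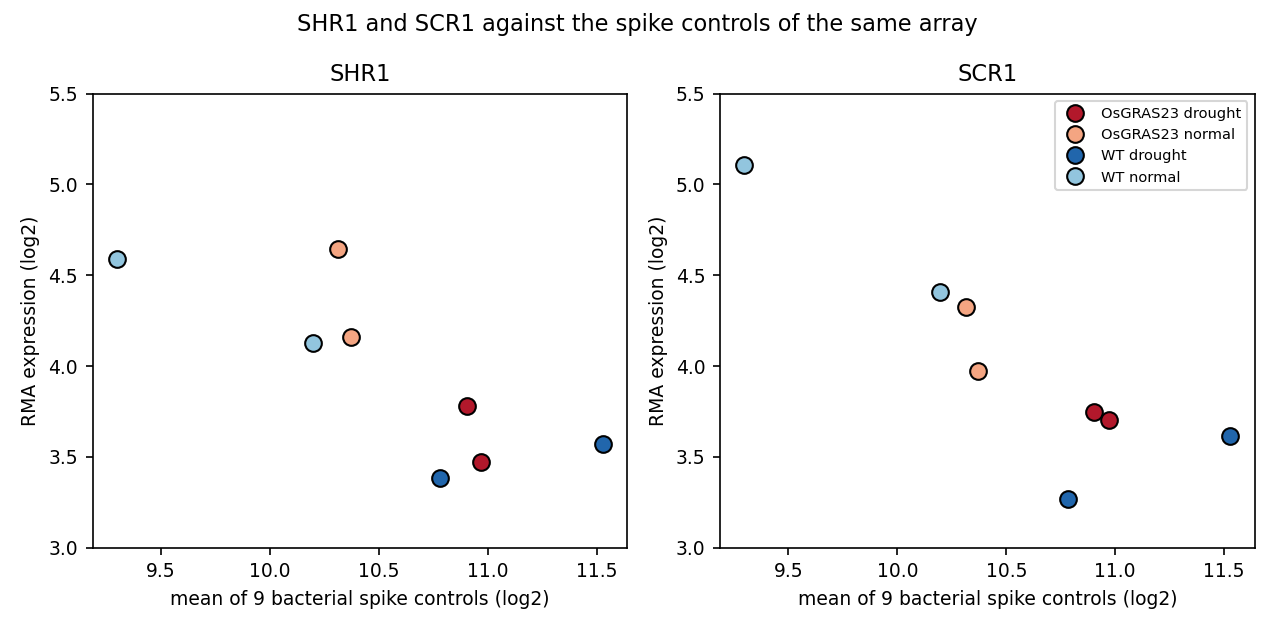
RMA expression (log2, vertical axis) of SHR1 and SCR1 against the mean of 9 bacterial spike controls (log2, horizontal axis), 1 point per array, for OsGRAS23 drought, OsGRAS23 normal, WT drought and WT normal leaves. The 4 drought arrays lie to the lower right, and WT normal replicate 2 lies farthest left, with spike controls at 9.30 and SCR1 at 5.10.

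Root marker genes were read as a check on the tissue. The mean of 12 root marker genes was 5.85 to 6.08 in OsGRAS23 drought leaves, 5.78 to 6.66 in OsGRAS23 normal leaves, 5.40 to 6.11 in WT drought leaves and 6.20 to 7.04 in WT normal leaves, again highest in WT normal replicate 2. In OsGRAS23 leaves 0 of the 12 were called under drought, with 6 differences above 0, 6 below 0 and a median of 0.02. In WT leaves 4 differences were above 0 and 8 below, with a median of -0.28, and 2 of the 12 were called, both lower, where 5.51% of all probe sets were called lower. These were the silicon exporter LSI2 (-2.90, adjusted p = 0.0337) and the iron transporter IRT1 (-2.27, adjusted p = 0.0295). The silicon channel LSI1, known mainly from roots, was bright in these leaf samples, with a mean of 9.69 in OsGRAS23 drought, 10.58 in OsGRAS23 normal, 9.24 in WT drought and 11.28 in WT normal leaves. The LSI2 and IRT1 calls were lost without WT normal replicate 2, without either WT drought array and with a trended, robust variance model. Of 7 leaf photosynthesis genes, RBCS, CAB2R and RCA (small subunit of Rubisco, a chlorophyll-binding protein and Rubisco activase) had group means of 12.79 to 14.11, while the probe set of RBCS1 read 3.36 to 3.53. The mean of the 7 was 9.86 to 10.21 in OsGRAS23 drought leaves, 10.39 to 10.48 in OsGRAS23 normal leaves, 10.08 to 10.18 in WT drought leaves and 10.53 to 10.60 in WT normal leaves, with 0 of the 7 called under drought in either line. Averaged over both lines, 4 of the 7 (CAB2R, FBP1, GLO1 and GLO4) passed the adjusted p with lower values under drought, all under 2-fold. By the adjusted p alone, 14.5% of all probe sets were lower in that averaged comparison. The mean of 6 shoot meristem markers was 5.76 to 6.01 in OsGRAS23 drought leaves, 5.45 to 6.31 in OsGRAS23 normal leaves, 5.42 to 5.92 in WT drought leaves and 4.94 to 5.15 in WT normal leaves, and 1 of the 6, the homeobox gene OSH6, was called higher in WT drought leaves (1.59), where 2.17% of all probe sets were called higher, a call lost on leaving out WT drought replicate 2 or WT normal replicate 2. In OsGRAS23 leaves OSH6 had 0.02, and the floral meristem receptor gene FON1 of the same list had -0.61 in OsGRAS23 leaves and -0.83 in WT leaves (adjusted p = 0.0257), under 2-fold. LSI1, FON1 and the leaf genes were picked after their values were seen. The part of these cell type markers in the SCR1 and SHR1 differences was not tested.

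**Figure D4:**
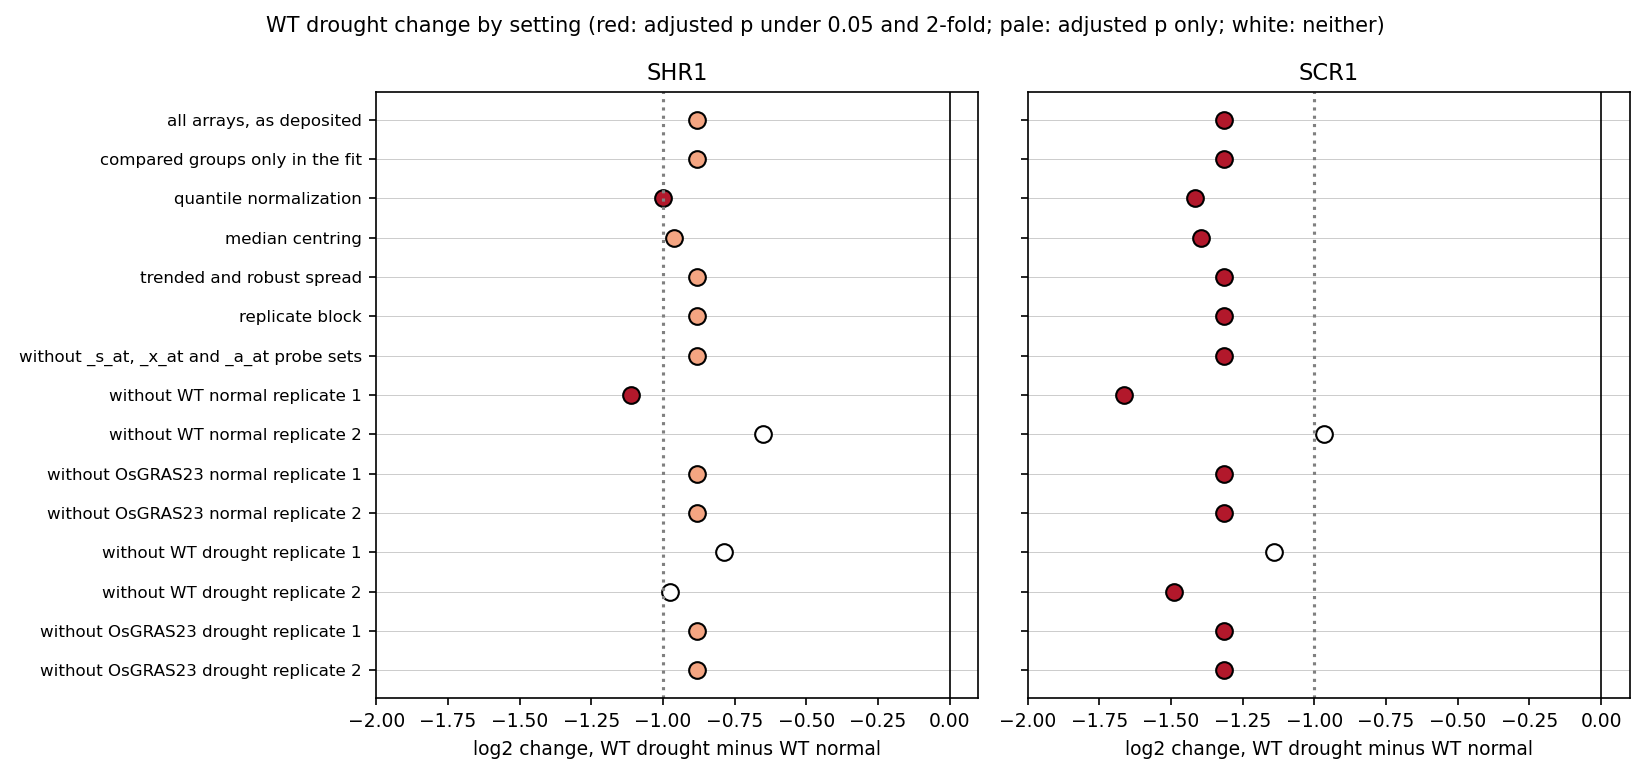
WT drought minus WT normal difference (log2, horizontal axis) of SHR1 and SCR1 under each setting in which the gene was tested, red where called, pale where only the adjusted p passed and white where neither did, with a dotted line at 2-fold. SCR1 runs from -1.66 to -0.97 and SHR1 from -1.11 to -0.65, all below 0, and SCR1 is white on leaving out WT drought replicate 1 or WT normal replicate 2.

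The genes whose pattern over the 8 arrays was most like that of SCR1, among 593 named genes whose group means differed by at least 2-fold, were CNIH1 (r = 0.99), GL2-2 (r = 0.98) and CIPK5 (r = 0.97). CIPK5, a kinase that works with calcium sensors, had a drought difference of -0.90 in OsGRAS23 leaves and -2.25 in WT leaves. CNIH1 had -0.29 in OsGRAS23 leaves and -1.05 in WT leaves, and GL2-2 had -0.59 and -1.27 in the same order. These genes were chosen for their likeness, so their values are a description.

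SLR1 (gene 4333860), the DELLA gene, had the smallest standard errors of the 5 members. It read 8.13 and 7.95 in OsGRAS23 drought leaves, against 7.90 and 8.00 in OsGRAS23 normal leaves. It read 8.11 and 7.85 in WT drought leaves, against 7.95 and 7.97 in WT normal leaves. The groups overlapped, and all group means lay between 7.95 and 8.04. The drought difference was 0.10 in OsGRAS23 leaves (95% interval -0.26 to 0.45, adjusted p = 0.840) and 0.02 in WT leaves (95% interval -0.34 to 0.38, adjusted p = 0.932). These intervals leave out a 2-fold change of SLR1 transcript in either direction. SLR1 is known to be controlled through its protein, which the arrays do not measure.

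CIGR1 (gene 4343521) read 11.85 and 12.21 in OsGRAS23 drought leaves, against 11.75 and 12.11 in OsGRAS23 normal leaves. It read 12.05 and 12.24 in WT drought leaves, against 12.15 and 11.26 in WT normal leaves, where the replicates lay farther apart than those of any other member in any group. The drought difference was 0.10 in OsGRAS23 leaves (95% interval -0.54 to 0.74, adjusted p = 0.914) and 0.44 in WT leaves (95% interval -0.20 to 1.08, adjusted p = 0.287). The WT value was 0.89 without WT normal replicate 1 and near 0 without WT normal replicate 2, the array with the low reading.

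CIGR2 (gene 4343735) read 10.34 and 10.82 in OsGRAS23 drought leaves, against 10.61 and 11.09 in OsGRAS23 normal leaves. It read 10.70 and 10.90 in WT drought leaves, against 11.14 and 10.57 in WT normal leaves. Its groups overlapped, with a drought difference of -0.27 in OsGRAS23 leaves (95% interval -0.85 to 0.30, adjusted p = 0.674) and -0.06 in WT leaves (95% interval -0.63 to 0.52, adjusted p = 0.894). CIGR1 and CIGR2 had r = 0.61 over the 8 arrays.

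The OsGRAS23 plants are labelled as overexpressing another GRAS gene, and the comparison of both lines asks whether the members' transcripts differed with it. Under normal conditions 0 of 5 members were called by limma, where 0.0192% of all probe sets were called. An unadjusted p under 0.05 was found for 1 of the 5 (SCR1) and for 4.10% of all probe sets. SCR1 averaged 4.15 ± 0.25 in OsGRAS23 normal leaves and 4.76 ± 0.49 in WT normal leaves (SD, n = 2 each), a difference of -0.61 (95% interval -1.16 to -0.05, adjusted p = 1). The arrays of the 2 lines did not overlap here, but complete separation of 2 against 2 arrays has an exact permutation p of only 0.333. The difference was -0.26 without WT normal replicate 2 and -0.95 without WT normal replicate 1. SHR1 averaged 4.40 ± 0.34 in OsGRAS23 normal leaves and 4.36 ± 0.33 in WT normal leaves, a difference of 0.04 (95% interval -0.47 to 0.56). The differences of SLR1 (-0.01, 95% interval -0.37 to 0.35), CIGR2 (0.00, 95% interval -0.58 to 0.57) and CIGR1 (0.23, 95% interval -0.42 to 0.87) were likewise smaller than the spread, each with an adjusted p of 1.

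Under drought limma called 0 of 5 members between the lines, where 0.0157% of all probe sets were called, and an unadjusted p under 0.05 was found for 0 of the 5 and for 7.06% of all probe sets. SCR1 averaged 3.73 ± 0.03 in OsGRAS23 drought leaves and 3.44 ± 0.25 in WT drought leaves (SD, n = 2 each), a difference of 0.29 (95% interval -0.27 to 0.84, adjusted p = 0.765). The other 4 members ran from -0.22 for CIGR2 (95% interval -0.80 to 0.35) to 0.15 for SHR1 (95% interval -0.36 to 0.66). All 5 intervals lie within a 2-fold change in either direction. For SLR1, CIGR1 and CIGR2 a change of that size between the lines under drought was therefore not seen in these arrays. Smaller ones cannot be told from no change. SCR1 and SHR1 were dim on the drought arrays and are not known to be above background there. Their intervals therefore cannot speak for or against a change of their transcripts. Averaged over both conditions, limma called 0 of 5 members, where 0.0507% of all probe sets were called, and an unadjusted p under 0.05 was found for 0 of the 5 and for 4.41% of all probe sets.

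The drought difference of SCR1 was 0.89 less negative in OsGRAS23 leaves than in WT leaves (95% interval 0.11 to 1.68). After adjustment over all probe sets this difference between the lines did not pass (adjusted p = 0.729), and it ran from 0.54 to 1.24 on leaving out single arrays. For SHR1 the difference between the lines was 0.11 (95% interval -0.62 to 0.83, adjusted p = 0.942). For this difference limma called 0 of 5 members and 0 of all 57194 probe sets, and 1 member (SCR1) and 6.71% of all probe sets had an unadjusted p under 0.05.

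Ordered by group mean, SCR1 was lowest in WT drought leaves (3.44), followed by OsGRAS23 drought (3.73), OsGRAS23 normal (4.15) and WT normal leaves (4.76), and no neighbouring pair in this order passed the adjusted p. SHR1 ran from WT drought (3.48) through OsGRAS23 drought (3.63) and WT normal (4.36) to OsGRAS23 normal leaves (4.40). In SHR1 the gap lay between the conditions, and the lines did not differ beyond their spread within either. The orders of SLR1, CIGR1 and CIGR2 held no neighbours that differed beyond their spread.

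Genes that work with these regulators were read from lists of partners. Of 14 genes of gibberellin synthesis and signalling, 1 was called higher and 0 lower in OsGRAS23 drought leaves, and 0 higher and 1 lower in WT drought leaves. Over all probe sets, 1.60% were called higher and 0.836% lower in OsGRAS23 drought leaves, and 2.17% higher and 5.51% lower in WT drought leaves. GA20OX3, an enzyme of gibberellin synthesis, read 7.89 and 7.72 in OsGRAS23 drought leaves, against 6.12 and 6.71 in OsGRAS23 normal leaves. It read 7.39 and 7.18 in WT drought leaves, against 6.25 and 6.34 in WT normal leaves. All drought arrays were above all normal arrays, as they were for 11.9% of all probe sets. It rose 2.62-fold in OsGRAS23 leaves (1.39 on the log2 scale, adjusted p = 0.0112), a call lost without OsGRAS23 normal replicate 1 (1.09, adjusted p = 0.0749). In WT leaves its difference of 0.99 (adjusted p = 0.0148) stood just under 2-fold.

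GAMYB, a transcription factor that acts downstream of SLR1 in gibberellin signalling, read 4.91 and 4.61 in OsGRAS23 drought leaves, against 5.70 and 5.64 in OsGRAS23 normal leaves. It read 4.69 and 5.05 in WT drought leaves, against 6.10 and 6.61 in WT normal leaves. Every drought array was below every normal array, as for 15.1% of all probe sets. It fell 2.81-fold in WT leaves (-1.49, adjusted p = 0.00380), while in OsGRAS23 leaves the difference was -0.91 (adjusted p = 0.0573). The difference between the lines in this drought change was 0.58 (95% interval -0.11 to 1.27, adjusted p = 0.729). The median drought difference of the 14 genes was -0.07 in OsGRAS23 leaves and 0.00 in WT leaves, beside 0.02 and 0.08 over all probe sets, so the list as a whole sat near the array.

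Of 11 genes of chitin perception and of the outputs linked to CIGR1 and CIGR2, 0 were called higher and 2 lower in OsGRAS23 drought leaves, and 0 higher and 3 lower in WT drought leaves, where 0.836% and 5.51% of all probe sets were called lower in those lines. CEBIP, the rice receptor that binds chitin fragments at the cell surface, read 5.78 and 5.84 in OsGRAS23 drought leaves, against 7.15 and 7.05 in OsGRAS23 normal leaves. It read 5.36 and 5.53 in WT drought leaves, against 7.02 and 7.60 in WT normal leaves. The conditions were far apart in both lines. It fell 2.44-fold in OsGRAS23 leaves (-1.29, adjusted p = 0.0127) and 3.64-fold in WT leaves (-1.86, adjusted p = 0.00138). In OsGRAS23 leaves the adjusted p was above 0.05 on leaving out any of the 4 OsGRAS23 arrays (0.0516 to 0.104), whereas the WT call held without any single array.

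LYP4, a second protein that binds chitin and peptidoglycan, read 5.92 and 5.71 in OsGRAS23 drought leaves, against 7.70 and 7.15 in OsGRAS23 normal leaves. It read 5.18 and 5.64 in WT drought leaves, against 6.65 and 7.37 in WT normal leaves. It fell 3.05-fold in OsGRAS23 leaves (-1.61, adjusted p = 0.0198) and 3.03-fold in WT leaves (-1.60, adjusted p = 0.00795). The OsGRAS23 call was lost without OsGRAS23 normal replicate 1 or either OsGRAS23 drought array, and the WT call without WT normal replicate 2 (adjusted p = 0.0576) or WT drought replicate 1 (adjusted p = 0.0585). RAC1, a small GTPase of rice immunity, had -1.18 in both lines, with an adjusted p of 0.0717 in OsGRAS23 leaves and 0.0281 in WT leaves. The RAC1 call in WT leaves was lost under quantile normalization (-0.97) and without WT normal replicate 2 or either WT drought array.

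Not every gene of this list was lower. Of the 2 genes that carry the name of the chitin co-receptor CERK1, gene 4346173 had a difference of 0.83 in each line (adjusted p = 0.0325 in OsGRAS23 leaves and 0.0123 in WT leaves), under 2-fold. HSF23, a heat stress factor that CIGR2 is known to regulate in rice, had 0.93 in OsGRAS23 leaves (adjusted p = 0.0273) and 0.57 in WT leaves (adjusted p = 0.0544). CERK1 and HSF23 were picked after their values were seen. The median drought difference of the 11 genes was 0.31 in OsGRAS23 leaves and 0.13 in WT leaves, above the 0.02 and 0.08 of all probe sets, although the called members were all lower. The receptors CEBIP and LYP4 thus fell in leaves in which CIGR1 and CIGR2 themselves were not called.

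**Figure D5:**
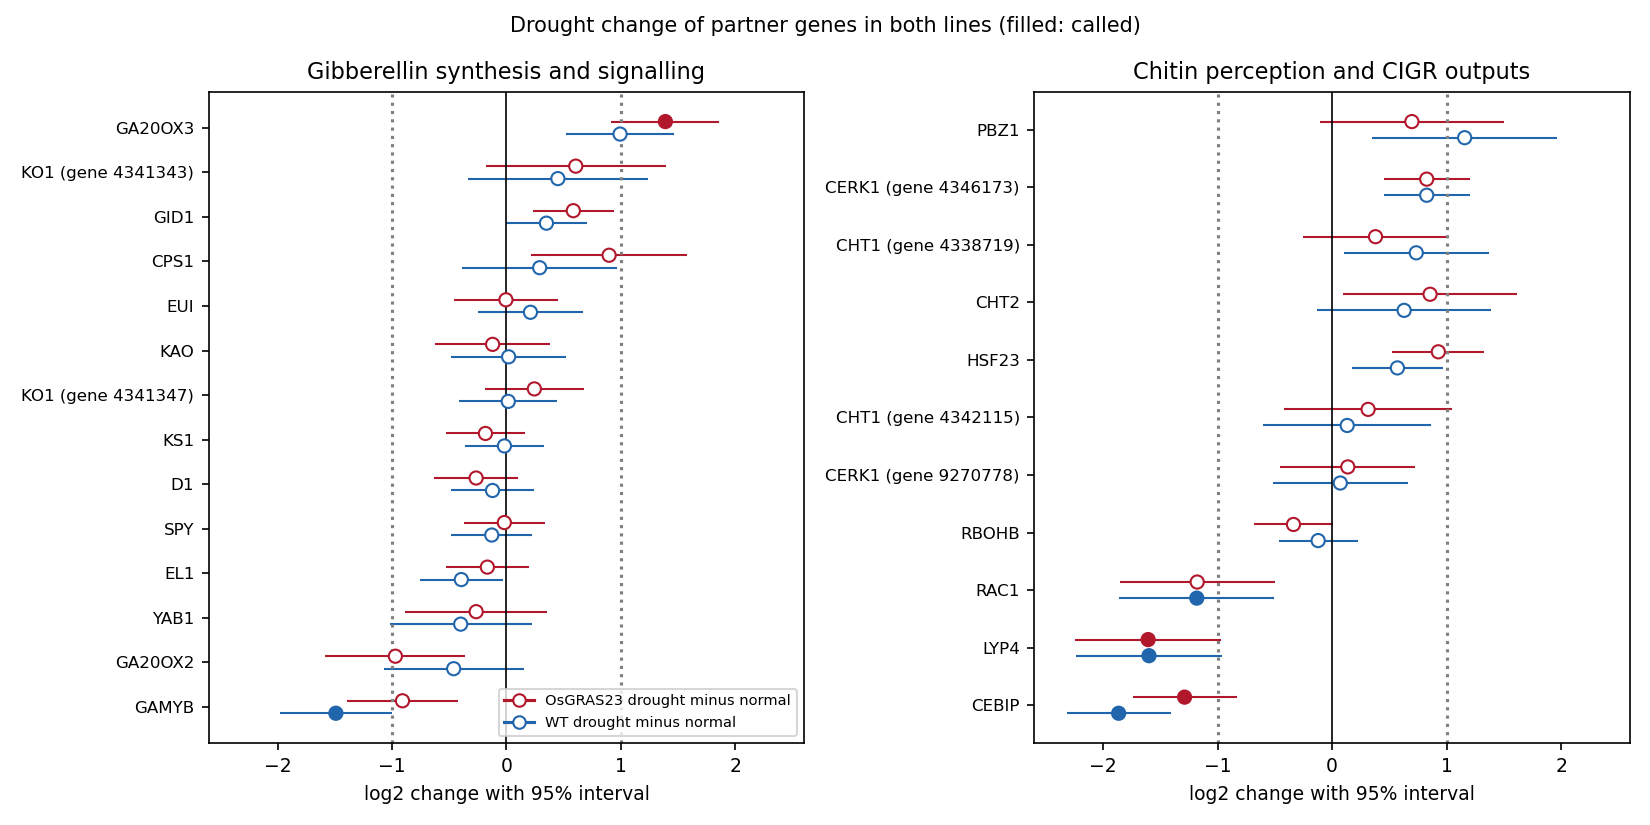
Drought minus normal difference (log2, horizontal axis) with its 95% interval for 14 gibberellin genes and 11 chitin perception genes, OsGRAS23 leaves in red above WT leaves in blue, filled where called and with dotted lines at 2-fold. GA20OX3 in OsGRAS23 leaves is the only filled point above 0, and GAMYB, CEBIP, LYP4 and RAC1 hold the filled points below 0.

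The other lists of partner genes gave no call in any comparison. Over all probe sets, 2.43% were called under drought in OsGRAS23 leaves and 7.68% in WT leaves, so no call among so few genes says little about them. The GRAS relatives SLRL1, a DELLA-like gene without the DELLA motif, and SCL7 had drought differences of 0.06 and 0.27 in OsGRAS23 leaves and of 0.31 and 0.11 in WT leaves, and limma called 0 of 2. Of the 7 tillering and shoot meristem genes around MOC1, 0 were called. CYCD6;1, the cyclin that SHR and SCR switch on in Arabidopsis roots, had -0.26 in OsGRAS23 leaves (95% interval -1.02 to 0.49) and -0.20 in WT leaves (95% interval -0.95 to 0.55) and was not called. No gene of these lists was called between the lines in either condition, nor for the difference between the lines in drought change. Of all probe sets, 0.0192% were called between the lines under normal conditions, 0.0157% under drought and 0 for that difference.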

How the data were processed

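The deposited table holds log2 expression, 1 value per probe set and array. The submitters' processing notes name RMA and Partek 6.5, and the settings and probe annotation build are not given in the sources used here. RNA was 6 µg per labelling. The platform gene table gives 22436 probe sets 1 gene, 95 several and 34663 none, and none was named from a probe set with several genes. Differences were fitted with limma 3.58.1 in R 4.3.3 on all 8 arrays (group means, 4 residual and 4.85 prior degrees of freedom, two-sided), and p-values were adjusted by Benjamini-Hochberg over the 57194 rice probe sets, without the 187 controls of the array. No further normalization was applied. The fit was tested on simulated data. Plots used Python 3.11.15, pandas 2.3.3 and matplotlib 3.10.9.

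The members and lists were chosen with earlier results of these data known. Named genes were all members, list genes called in at least 1 comparison (at most 3 in each direction, each gene by its brightest probe set) and the 3 genes most like a called member. LSI1, RBCS, RBCS1, CAB2R, RCA, FBP1, GLO1, GLO4, FON1, CERK1, HSF23, SLRL1, SCL7 and CYCD6;1 fall outside this rule and were named after their values were seen. List genes that only share a symbol with the intended gene were left out. Replicate differences correlated at -0.17 to 0.10 between groups, so equal replicate numbers were not taken as pairs. Alternatives were fits on the compared groups, quantile normalization, median centring, a minimum mean of 5, a trended and robust variance, other thresholds, a replicate block, unique probe sets and leaving out each array.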

Additional observations from a re-analysis of the deposited data

Results flagged for a closer look

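The bacterial spike controls, which no comparison of rice genes uses, were brighter in drought leaves. Their mean over 9 probe sets was 10.78 to 11.53 on the 4 drought arrays and 9.30 to 10.37 on the 4 normal arrays, 1.00 higher on the log2 scale under drought. It was singled out because controls added to every sample differed with the condition. Their part in the differences of the GRAS genes was not tested.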

How the results depend on the processing

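Of 733 repeats of the member and called list gene differences under other settings, 667 kept their direction and their side of the call. A call was lost in 27 and gained in 6, and 33 changed direction, all of the last among members that were not called. List genes were repeated only where called with the deposited values, and marker genes only as LSI2, IRT1 and OSH6 in WT leaves. Uncalled list genes could therefore show no gained call or change of direction. Other thresholds, the other variance model, probe set filters, fits on the compared groups and the replicate block leave the difference itself unchanged. So does leaving out an array of a group outside the comparison. Direction could not change in those repeats, so the count that kept it was partly fixed in advance. The count of members called in WT drought leaves was 1, and became 2 with no fold threshold, 2 under quantile normalization (SHR1 at -1.001) and 0 when a mean above 5 was required, which removed SCR1 and SHR1 by construction. On leaving out 1 array it ran from 0 to 2, with 0 when either WT drought replicate 1 or WT normal replicate 2 was left out and 2 when WT normal replicate 1 was. In the drought comparison averaged over both lines the count was 0, became 2 with no fold threshold and ran from 0 to 1 on leaving out 1 array, with 1 without WT normal replicate 1 (SCR1 at -1.04). No setting gave a member call within the OsGRAS23 line, between the lines or for the difference between the lines. With the deposited values, 2.43% of all probe sets were called within the OsGRAS23 line and 0 for the difference between the lines. Between the lines, 0.0192% were called under normal conditions and 0.0157% under drought. The lack of a call among 5 members therefore says little about them. With the replicate block SCR1 kept its call in WT drought leaves (adjusted p = 0.0142) and no member call changed. The block left 13 in place of 29 probe sets called between the lines averaged over both conditions.

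Small differences turned direction. SLR1 in WT drought leaves became -0.059 under median centring. Under quantile normalization SLR1 became 0.061 between the lines under normal conditions, -0.067 between them under drought and -0.13 for the difference between the lines, and CIGR2 became 0.015 between the lines under normal conditions. On leaving out 1 array, the drought difference in OsGRAS23 leaves ran from -0.080 to 0.28 for CIGR1. In WT leaves it ran from -0.11 to 0.16 for SLR1, from -0.0017 to 0.89 for CIGR1 and from -0.34 to 0.23 for CIGR2, and averaged over both lines from -0.0083 to 0.13 for SLR1. Between the lines under normal conditions the ranges were -0.20 to 0.28 for SHR1, -0.062 to 0.040 for SLR1, -0.22 to 0.67 for CIGR1 and -0.28 to 0.28 for CIGR2. Under drought they were -0.0047 to 0.30 for SHR1, -0.072 to 0.20 for SLR1, -0.30 to 0.061 for CIGR1 and -0.46 to 0.015 for CIGR2. For the difference between the lines they were -0.13 to 0.35 for SHR1, -0.061 to 0.21 for SLR1, -0.79 to 0.10 for CIGR1 and -0.50 to 0.062 for CIGR2. Over all probe sets and settings, the count called ran from 317 to 1973 (1392 as deposited) in OsGRAS23 drought leaves, from 1930 to 10532 (4392) in WT drought leaves, from 2202 to 12974 (2819) for drought averaged over both lines, from 7 to 22 (11) between the lines under normal conditions and from 9 to 31 (29) between them on average. The cause was not tested.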
